A study of Homo sapiens with 4 samples.

Results

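The transcriptome described here is that of the sgRNA-NT library, the control of the series, and its members were taken as the single column of values for that library, 1 sample of 4. BJ cells are an established line of human foreskin fibroblasts, immortalized here with hTERT and carrying an oncogenic RASG12V that 4-hydroxytamoxifen (4-OHT) switches on. In all 4 libraries RASG12V had been induced with 4-OHT for 14 days, and the cells carried CRISPR-Cas9 with a guide. The sgRNA-NT cells received a non-targeting guide and the sgRNA-FOXF1 cells a guide against the FOXF1 gene. The sgRNA-AP1-69 cells received a guide against an AP-1 site in an enhancer, and the sgRNA-AP1-71 cells another guide against that site. Values given in library order are those of sgRNA-NT, then sgRNA-AP1-69, then sgRNA-AP1-71, then sgRNA-FOXF1. With 1 library per condition, values have no replicate error and no test between libraries was made. No library of cells without induced RAS was analysed here, so a level in sgRNA-NT is a level in RAS-induced cells and not a change upon induction.

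Oncogene-induced senescence is a lasting growth arrest that follows strong RAS signalling. The arrest runs through cyclin-dependent kinase inhibitors, above all the p53 target CDKN1A, and through the retinoblastoma pathway. Senescent fibroblasts are also known for a rich lysosomal compartment, for a loss of lamin B1 and for a secretory programme of cytokines, growth factors and matrix-degrading proteases.

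Poly(A) RNA was sequenced, and the authors gave each gene as reads per kilobase of transcript, scaled by library size (RPKM). They quantile-normalized the libraries together. The values cover 12033 genes, are written to 1 decimal and are never below a floor of 1 RPKM. Read counts were not used here, so neither the depth nor a counting error is known. Quantile normalization gives every library nearly the same sorted values, with equal values in all 4 at 72.5% of ranks. What is particular to a library is therefore which gene holds which rank, and not how steeply levels fall with rank. Ratios between genes given below are likewise ratios of values that the libraries nearly share at those ranks. A rank of 1 is the highest gene, and a percentile is the share of all genes below a gene, with tied genes split evenly.

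In the sgRNA-NT library 9000 of the 12033 genes (74.8%) lay above the floor, and 3033 genes lay at it. The median was 3.5 RPKM over all genes and 6.2 RPKM over genes above the floor. A level of at least 10 RPKM was reached by 3362 genes, at least 100 RPKM by 408 genes and at least 1000 RPKM by 30 genes. The highest 10% of genes began at 33.3 RPKM and held 1204 genes (10.0% of the table), and this limit is the one used for gene lists below. The 10 highest genes together made up 37.9% of the summed RPKM and the 100 highest 57.8%. These shares were 37.9% to 38.0% and 57.6% to 57.8% in the other libraries, a likeness that the quantile normalization fixes.

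**Figure D1:**
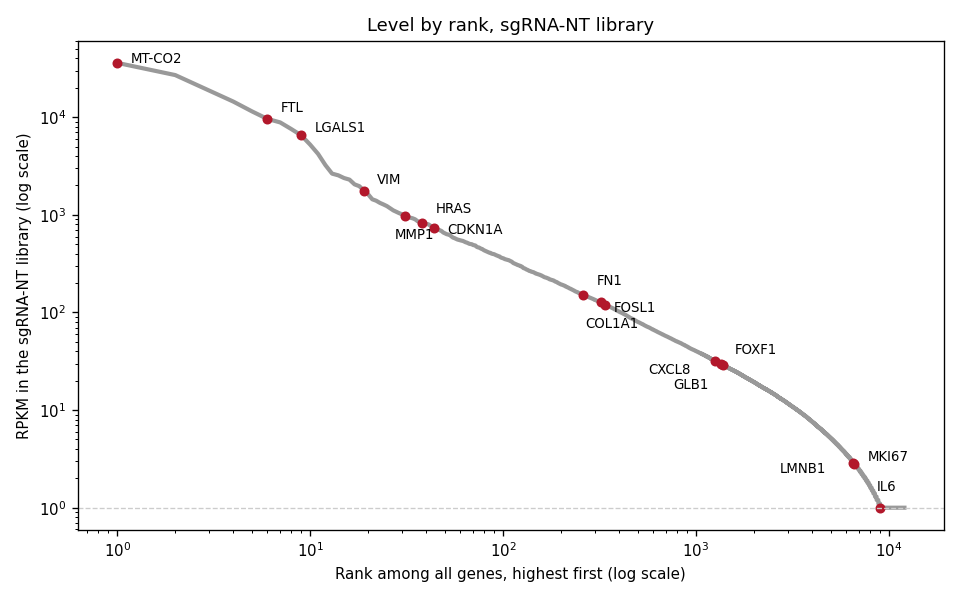
Level (RPKM, log scale) of every gene of the sgRNA-NT library against its rank (log scale), with named genes as red points and the floor of 1 RPKM as a dashed line. MT-CO2 leads at 36067.7 RPKM, HRAS and CDKN1A lie at ranks 38 and 44, and IL6 lies at the floor.

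The 5 markers given for these cells, chosen with earlier results of these data known, were all in the highest 10% of genes. HRAS, the small GTPase whose oncogenic form drives the arrest, was at 829.4 RPKM (rank 38). CCND1, the cyclin that partners CDK4 and CDK6 in G1, was at 775.8 RPKM (rank 42), and CDKN1A, the inhibitor of cyclin-dependent kinases that p53 induces, at 736.2 RPKM (rank 44). The matrix genes FN1 (fibronectin) and COL1A1 (the alpha 1 chain of type I collagen) were at 151.4 RPKM (rank 260) and 120.6 RPKM (rank 339).

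In the annotation on GRCh37, HRAS (ENSG00000174775) lies at chr11:532242-537321 on the minus strand with 6 exons in its canonical transcript, and CCND1 (ENSG00000110092) at chr11:69455924-69469242 on the plus strand with 5 exons. CDKN1A (ENSG00000124762) lies at chr6:36644237-36655114 on the plus strand with 3 exons. COL1A1 (ENSG00000108821) lies at chr17:48261462-48278993 with 51 exons and FN1 (ENSG00000115414) at chr2:216225163-216300796 with 46 exons, both on the minus strand. RPKM values are counted over exons of the whole gene, so reads from an introduced RAS or TERT coding sequence cannot be told apart from those of the resident gene.

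Side by side over the 4 libraries, HRAS was at 829.4, 446.4, 427.4 and 707.6 RPKM in library order. CDKN1A was at 736.2, 627.8, 512.0 and 568.5 RPKM and CCND1 at 775.8, 488.1, 364.0 and 334.2 RPKM in the same order. The control library held the highest value of each of these genes. FN1 was at 151.4, 53.9, 33.1 and 71.6 RPKM and COL1A1 at 120.6, 53.7, 42.5 and 115.6 RPKM, again highest in sgRNA-NT. The canonical transcripts of FN1 and COL1A1 are long, at 8390 and 5914 bases. Whether differences between libraries went with transcript length or RNA quality was not tested, here or for the genes below. TERT, the catalytic subunit of telomerase, was at 11.3 RPKM in sgRNA-NT (rank 3058) and at 3.5, 1.2 and 3.5 RPKM in the others. HRAS and TERT are the genes of the introduced constructs, and the part of construct expression in the other values was not tested.

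The highest ranks belonged to the mitochondrial genome. MT-CO2, MT-CO1 and MT-CO3, the subunits of cytochrome c oxidase that mitochondria encode, held ranks 1 to 3 at 36067.7, 27029.4 and 18727.7 RPKM. MT-ATP6 and MT-ND4, subunits of ATP synthase and of complex I, followed at 14464.8 and 11475.6 RPKM. Mitochondrial genes took 7 of the 10 highest ranks and 14 of the 30 highest. The 13 mitochondrial mRNAs all lay in the highest 10% and made up 33.2% of the summed RPKM, and with the other mitochondrial transcripts of the table, 21 genes in all, the share was 35.8%.

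Among the 13 mRNAs the levels were far from equal. MT-ND6, the only mRNA of the set encoded on the light strand, was lowest at 300.4 RPKM, which put MT-CO2 120-fold above it. MT-ND4L and MT-ATP8, at 5249.2 and 2295.5 RPKM, share bases with MT-ND4 and MT-ATP6. That overlap covers 2.36% of MT-ND4L and 22.2% of MT-ATP8, so their counts are uncertain. The sample labels and the methods differ on whether the library kit marked strand, so whether reads of MT-ND6 were kept apart from those of the opposite strand is not settled here.

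The mitochondrial share of the summed RPKM was 35.8%, 28.9%, 25.8% and 31.3% in library order. MT-ND5 was at 2382.4, 559.0, 287.0 and 829.4 RPKM in this order, and MT-ND1 at 1623.7, 800.6, 359.0 and 949.7 RPKM. The control library held the highest level of both genes. MT-RNR2, the large ribosomal RNA of mitochondria, had the opposite order, at 8846.7 RPKM in sgRNA-NT and 11475.6, 14464.8 and 9620.5 RPKM in the others. MT-CO2 and MT-CO1 were ranks 1 and 2 in every library and so carry the same value in each. Of the 13 mRNAs, 10, 10 and 9 were lower than in sgRNA-NT in the others, in library order, as a description of single libraries.

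The nuclear genes at the top were those of iron storage, the cytoskeleton and glycolysis. FTL, the ferritin light chain, was at 9620.5 RPKM (rank 6), 9.5 times the level of FTH1, the heavy chain, at 1012.7 RPKM (rank 30). TMSB10, which binds actin monomers, was at 7555.4 RPKM (rank 8), LGALS1, the secreted lectin galectin-1, at 6517.0 RPKM (rank 9) and the glycolytic enzyme GAPDH at 4212.3 RPKM (rank 11). The calcium-binding S100A6, S100A11 and S100A4 were at 2644.9, 1396.1 and 1166.9 RPKM, and the actin genes ACTG1 and ACTB at 2053.4 and 1444.0 RPKM. The elongation factor EEF1A1 (1326.5 RPKM), the ribosomal protein RPL41 (1229.5 RPKM) and the glycolytic PKM (1039.3 RPKM) completed the cytosolic core. From the lists of secreted senescence factors, 2 genes stood among the 30 highest, the protease PLAU at 1110.8 RPKM (rank 27) and the IGF-binding IGFBP4 at 1073.3 RPKM (rank 28).

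The same genes filled the top of the other libraries to a large extent. Of the 100 highest genes of sgRNA-NT, 83, 80 and 86 were among the 100 highest of the other libraries in library order. Across all genes, Spearman's rho between sgRNA-NT and the others was 0.972, 0.956 and 0.958 in the same order. Genes are not independent replicates, and the libraries share their quantiles.

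Of 930 genes in lists by function and cell type, 761 were in the table, and the lists differed widely in level. Counts of list members above the floor are to be read beside the 74.8% of all genes that lay above it. The lists were written with earlier results of these data known, so counts from them are descriptions only. Ribosomal proteins had a median of 197.4 RPKM, with 72 of 77 measured members in the highest 10%, led by RPL41, RPS12 (934.4 RPKM) and RPL13A (839.7 RPKM). Cytoskeletal genes had a median of 163.1 RPKM, with 46 of 52 in the highest 10%. Protein folding genes followed with 109.7 RPKM and 27 of 32, led by the chaperone CALR (922.1 RPKM), the ubiquitin gene UBB (900.7 RPKM) and the chaperone HSPA8 (659.4 RPKM). Glycolysis had a median of 70.3 RPKM with 12 of 20, and redox and metal genes 66.75 RPKM with 21 of 30, among them GPX1 (800.6 RPKM), SOD3 (646.3 RPKM) and PRDX1 (568.5 RPKM), which remove peroxides and superoxide. GPX1 shares 63.6% of its exon bases with another gene on its strand, so its value is uncertain. By share of the summed RPKM, cytoskeletal genes held 6.68%, ribosomal proteins 5.34% and redox and metal genes 4.00%.

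Most genes of the fibroblast list were high, as a description, since earlier results of these data were known when the list was written. Of 35 measured fibroblast genes 33 were above the floor and 25 in the highest 10%, with a median of 145.9 RPKM and a median percentile of 97.7. S100A6 led the list, followed by the intermediate filament gene VIM at 1775.3 RPKM (rank 19), S100A4, the matrix protein SPARC at 818.3 RPKM (rank 39) and the tropomyosin TPM2 at 543.9 RPKM (rank 61). The members at the floor were DCN, which encodes the proteoglycan decorin, and FAP, a membrane protease of activated fibroblasts. Other fibroblast markers were low as well, among them PDGFRA at 8.9 RPKM (rank 3614) and LUM at 2.3 RPKM (rank 7108). VIM was at 1775.3, 2644.9, 2644.9 and 2382.4 RPKM in library order and was thus lowest in the control.

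Markers of other cell types were few and mostly low. Of 97 such markers 17 were in the table, 7 of these at the floor and 10 above it, with a median of 1.5 RPKM and a summed share of 0.0359% of the RPKM. KRT18, a keratin of simple epithelia, was the single member in the highest 10% at 76.0 RPKM (rank 527), while its partner KRT8 was at 4.5 RPKM and the desmosomal DSP at the floor. Smooth muscle SMTN was at 27.5 RPKM with LMOD1 and CNN1 at the floor. The endothelial TIE1 and ROBO4 were at the floor, and the myeloid CD14 and LAPTM5 at 9.8 and 2.3 RPKM. The other markers of these lists were not in the table and have no level here.

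Collagens were led by type VI. COL6A2, COL6A1 and COL6A3, the chains of the beaded microfibril, were at 449.6 RPKM (rank 77), 337.0 RPKM (rank 109) and 180.8 RPKM (rank 216). COL1A2, the partner chain of COL1A1 in type I collagen, was at 287.0 RPKM (rank 127), 2.38 times COL1A1, and COL5A2 at 145.9 RPKM (rank 273). Of 23 collagen genes 19 were above the floor (82.6%, against 74.8% of all genes) and 11 in the highest 10%. COL5A3, COL8A2, COL14A1 and COL15A1 were at the floor. The median over all measured collagens was 32.3 RPKM.

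Of 51 further matrix genes 46 were above the floor and 24 in the highest 10%, with a median of 31.7 RPKM. After LGALS1 and SPARC came P4HB, a subunit of the collagen prolyl hydroxylase, at 532.0 RPKM (rank 63), the crosslinking enzyme LOXL2 at 356.8 RPKM (rank 101) and the laminin chain LAMC1 at 247.2 RPKM (rank 151). The proteoglycan DCN, the fibulin EFEMP1, TGFBI, MFAP5 and MGP, the matrix Gla protein, were at the floor. Matrix genes and collagens together made up 3.20% of the summed RPKM.

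Among the arrest genes CDKN1A stood alone at the top. Of 35 genes of arrest and p53 response 32 were above the floor and 8 in the highest 10%, with a median of 6.5 RPKM and a percentile of 63.5. After CDKN1A at 736.2 RPKM the next member was the death receptor TNFRSF10B at 77.9 RPKM (rank 514), then the pore-forming BAX at 58.6 RPKM, PHLDA3, which restrains AKT, at 41.1 RPKM and GADD45A, a stress sensor, at 40.6 RPKM. CDKN2A, the locus of the INK4A and ARF inhibitors, was at the floor in sgRNA-NT, with 1.0, 1.0 and 1.1 RPKM in the other libraries. CDKN1C and RBL1, a kinase inhibitor and a retinoblastoma relative, were at the floor as well. CDKN1A therefore lay at least 736 times above the floor value at which CDKN2A is listed, and a level under the floor is not resolved.

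The G1 machinery was uneven in the same way. CCND1 was 14.5 times its partner kinase CDK4 (53.5 RPKM, rank 751), and CCND3 was at 21.9 RPKM. CDK2 was at 9.0 RPKM, E2F1 at 5.1 RPKM, E2F3 at 3.8 RPKM, CCNE1 at 3.7 RPKM and CDK6 at 2.6 RPKM. CCNE2, the second cyclin E, was at the floor.

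Proliferation genes were mostly above the floor but rarely in the highest 10%. Of 40 members 36 were above the floor, and 1, the replication clamp PCNA at 43.2 RPKM (rank 928), was in the highest 10%. The list had a median of 5.1 RPKM and a median percentile of 58.25, against 3.5 RPKM over all genes. The mitotic activator CDC20 (28.5 RPKM), the nucleotide enzymes TK1 (23.0 RPKM) and TYMS (20.6 RPKM) and the replicative helicase subunit MCM7 (20.4 RPKM) came next. TTK, BUB1B, HMMR and E2F2, of which the first 3 act in mitosis, were at the floor. MKI67, the antigen of cycling cells, was at 2.8 RPKM in sgRNA-NT and 1.3, 1.7 and 1.6 RPKM in the others. MKI67 was named after its value was seen, since it is a textbook marker, and it does not stand for the list. PCNA was also highest in sgRNA-NT, at 43.2 RPKM against 38.2, 40.5 and 38.6 RPKM. CDC20, TK1, TYMS and MCM7 were each lowest there, CDC20 at 28.5 RPKM against 42.7, 56.1 and 57.2 RPKM.

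Chromatin and nuclear envelope genes split by member. HMGA1, a chromatin architectural protein of senescence foci, was at 949.7 RPKM (rank 32), with the histone variant H2AFZ at 438.3 RPKM (rank 79), the lamin gene LMNA at 222.5 RPKM and the linker histone H1F0 at 154.6 RPKM. EZH2, the methyltransferase of the Polycomb complex, was at the floor. LMNB1, which encodes lamin B1, was at 2.9 RPKM in sgRNA-NT and 3.9, 5.5 and 4.5 RPKM in the other libraries in order, the lowest of the 4 in the control. LMNB1 and GLB1 below were named after their values were seen.

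Lysosomal genes were all above the floor. The 34 members had a median of 29.85 RPKM with 16 in the highest 10%. The tetraspanin CD63 (549.0 RPKM, rank 60), the saposin precursor PSAP (484.5 RPKM, rank 72), the progranulin gene GRN (250.0 RPKM) and the cathepsins CTSL (228.0 RPKM) and CTSB (200.4 RPKM) led them. GLB1, the lysosomal beta-galactosidase behind the senescence stain, was at 28.8 RPKM in sgRNA-NT (rank 1387) and at 22.3, 17.6 and 25.1 RPKM in the others.

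The lists of secreted factors differed in level, with proteases highest and cytokines lowest. Proteases and their inhibitors had a median of 62.55 RPKM, with 25 of 28 above the floor and 18 in the highest 10%. The plasminogen activators PLAU and PLAT were at 1110.8 RPKM (rank 27) and 810.8 RPKM (rank 40), the interstitial collagenase MMP1 at 978.0 RPKM (rank 31), TIMP3, an inhibitor of metalloproteinases, at 722.7 RPKM (rank 45) and the membrane protease MMP14 at 559.0 RPKM (rank 58). MMP10, MMP11 and SERPINF1 were at the floor. PLAU was at 1110.8, 543.9, 707.6 and 401.7 RPKM in library order, highest in the control. MMP1 was at 978.0, 408.1, 1012.7 and 501.8 RPKM and did not have its highest value there.

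Growth factors and IGF-binding proteins spread over the whole range, with a median of 7.85 RPKM. Of 44 members 36 were above the floor (81.8%, against 74.8% of all genes) and 14 in the highest 10%. IGFBP4, the hormone STC1 (446.4 RPKM, rank 78), IGFBP7 (376.2 RPKM, rank 95), the WNT antagonist family member DKK3 (374.5 RPKM, rank 96) and the matricellular CYR61 (120.8 RPKM, rank 338) led them. TGFA, AREG, HGF, PGF, TGFB2, INHBA and PDGFA, all of them ligands or ligand subunits, were among the members at the floor.

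Cytokines and chemokines were the lowest of the secreted lists. Of 26 measured members 12 were above the floor, 46.2% against 74.8% of all genes, and 3 were in the highest 10%. The highest was TNFRSF11B, the decoy receptor osteoprotegerin, at 261.0 RPKM (rank 141). IL1B, the secreted interleukin-1 beta, was at 114.5 RPKM (rank 357), while IL1A, its relative at the cell surface, was at the floor, so IL1B lay at least 114.5-fold above the floor value. The cytokine MIF was at 42.4 RPKM, CXCL8, the neutrophil chemokine interleukin-8, at 32.0 RPKM (rank 1255) and CXCL1 at 16.5 RPKM (rank 2279). MIF shares 64.1% of its exon bases with another gene on its strand, so its value is uncertain.

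The 14 members at the floor included signature factors of senescence. They were IL6, IL1A, IL15, IL24, IL32, CXCL2, CXCL3, CXCL5, CXCL6, CXCL12, CCL26, CSF3, LIF and TNFSF15. Of these, 6 were at the floor in all 4 libraries, and 7 were above it in sgRNA-AP1-71. IL6 was at 1.0, 1.0, 2.2 and 1.0 RPKM in library order. IL1B was at 114.5, 113.2, 311.8 and 73.7 RPKM, CXCL8 at 32.0, 45.2, 350.2 and 67.3 RPKM and CXCL1 at 16.5, 24.1, 148.2 and 39.6 RPKM in this order. The control library was the lowest for both chemokines and sgRNA-AP1-71 the highest for all 3 genes. The level of a secreted protein was not measured.

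**Figure D2:**
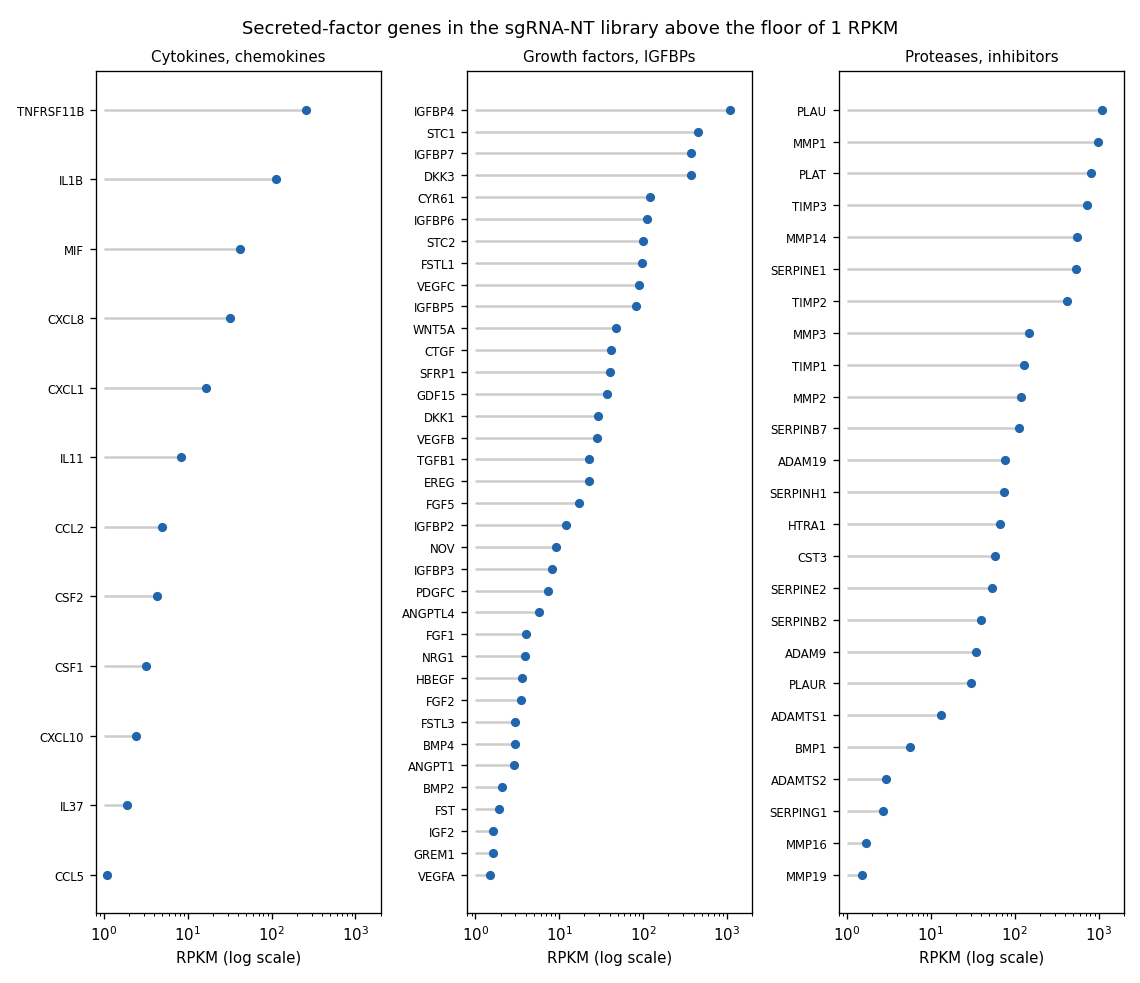
Level (RPKM, log scale) in the sgRNA-NT library of each cytokine or chemokine (12 genes), growth factor or IGF-binding protein (36) and protease or inhibitor (25) above the floor of 1 RPKM. The cytokine list reaches 261.0 RPKM with the decoy receptor TNFRSF11B and 114.5 RPKM with IL1B, and PLAU, MMP1 and IGFBP4 lie near 1000 RPKM.

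Along the RAS pathway HRAS was far above its relative NRAS. NRAS was at 6.5 RPKM, so that HRAS was 128-fold above it. Of 20 pathway genes 18 were above the floor, with a median of 13.95 RPKM. The adaptor SHC1 was at 309.2 RPKM (rank 118), RRAS, a related GTPase, at 121.1 RPKM, the adaptor GRB2 at 41.3 RPKM, and the kinases MAP2K2 and MAPK3 at 32.2 and 21.9 RPKM. The kinase BRAF was at 1.2 RPKM, and SOS2 and KSR1 were at the floor.

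Genes known as outputs of ERK signalling had a median of 26.05 RPKM, with 22 of 24 above the floor and 11 in the highest 10%. HMGA1 led the list, followed by the AP-1 subunit FOSL1 at 126.6 RPKM (rank 321), the ERK phosphatases DUSP5 at 92.6 RPKM and DUSP6 at 80.8 RPKM, and PHLDA1 at 83.5 RPKM. DUSP2 and LIF were at the floor.

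AP-1 is a dimer of JUN and FOS family proteins, and its subunits were present at very different levels. FOSL1 was highest at 126.6 RPKM. ATF4, a related bZIP factor of the stress response, was at 96.4 RPKM, and JUNB, JUN and JUND were close together at 31.3, 30.8 and 28.4 RPKM. FOSL2 was at 5.4 RPKM and ATF2 at 1.6 RPKM. FOS, FOSB, ATF3 and BATF3 were at the floor, so FOSL1 held the highest level of the FOS family. The small MAF genes MAFG, MAFF and MAFK were at 17.7, 10.8 and 8.7 RPKM.

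Among 27 mesenchymal transcription factors FOXF1 was the third highest at 29.6 RPKM (rank 1349), after TWIST2 at 50.9 RPKM (rank 787) and TBX3 at 30.1 RPKM. YAP1, the effector of Hippo signalling, and SRF, the factor of actin-regulated genes, were at 19.1 and 17.8 RPKM. The list had a median of 3.9 RPKM, with 19 above the floor (70.4%, against 74.8% of all genes) and 1 in the highest 10%. FOXC2, TCF4, ZEB2, OSR1, SIX2, EBF1 and KLF4 were among those at the floor. FOXF1 was at 29.6, 11.1, 7.8 and 25.0 RPKM in library order. These are RNA values, whereas the paper reports an effective FOXF1 knockout from western blots of the protein.

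HOX genes, which keep a record of body position in fibroblasts, were led by HOXA11 at 40.3 RPKM (rank 996), with HOXA10 at 9.1 and HOXA9 at 7.5 RPKM. Of 14 measured HOX genes 8 were above the floor, and HOXB2, HOXC4, HOXC11, HOXD9 and HOXD11 were among those at it. The 21 long non-coding RNAs of the list were all above the floor, with a median of 7.3 RPKM. SNHG8, GAS5 and SNHG5, hosts of small nucleolar RNAs, were at 64.0, 34.5 and 31.1 RPKM, and SNHG5 shares 60.7% of its exon bases with another gene on its strand, so its value is uncertain. MALAT1, an RNA of nuclear speckles, and NEAT1, the structural RNA of paraspeckles, were named after their values were seen and lay at 5.7 and 2.6 RPKM.

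Surface genes had a median of 21.1 RPKM and 18 of 38 in the highest 10%. CD63, the hyaluronan receptor CD44 (364.0 RPKM), the integrin chain ITGB1 (283.1 RPKM), the complement inhibitor CD59 (233.4 RPKM) and the ectonucleotidase NT5E (218.1 RPKM) were highest, and ITGB4 and CDH13 were at the floor. Antigen presentation and interferon genes had a median of 8.4 RPKM and 7 of 24 in the highest 10%. IFITM3, a restriction factor, was at 270.9 RPKM, the class I genes HLA-C and HLA-E were at 170.0 and 127.5 RPKM and their light chain B2M at 114.0 RPKM. The interferon-induced IFIT1, IFIT2, IFI27, IFI44, ISG20, OAS1 and MX1 and the class II gene HLA-DRA were at the floor.

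The floor held more of the non-coding genes than of the coding ones. Of 11459 protein-coding genes 2726 (23.8%) were at the floor in sgRNA-NT, of 345 long non-coding RNA genes 191 (55.4%) and of 192 pseudogenes 105 (54.7%). Of the 3033 genes at the floor 2421 were there in all 4 libraries and 612 were above it in at least 1 other library, 213 of them in all the others. In the other direction 211 genes were above the floor in sgRNA-NT alone.

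Some genes at or near the floor are ones that every cell uses. EIF4A1, the RNA helicase of translation initiation, and the ribosomal protein gene RPL36A were listed at 1.0 RPKM in each of the 4 libraries. RPL17 was at 4.4 RPKM and RPS10 at 3.9 RPKM in sgRNA-NT, against a median of 197.4 RPKM over ribosomal proteins. In the annotation other genes of the same strand cover 100% of the exon bases of EIF4A1, 96.9% of RPL17, 84.0% of RPS10 and 43.8% of RPL36A. For IL6, IL1A and CDKN2A this share was 0%, and overlap with genes of the opposite strand was not measured. Of the genes covered by over 50%, 150 of 363 (41.3%) were at the floor, against 25.2% of all genes. Whether the treatment of such reads by the counting step set these values was not tested.

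Genes were then grouped by level into those at the floor (3033 genes), above it but below the median of such genes (1.1 to 6.1 RPKM, 4475 genes), from the median up to the highest 10% (6.2 to 44.7 RPKM, 3625 genes) and the highest 10% of genes above the floor (from 44.8 RPKM, 900 genes). Coding length was shorter in each higher class. Median coding lengths in residues were 555 at the floor, 510, 406 and 303 in the highest class. The interquartile range was 365 to 865 at the floor and 178 to 505 in the highest class, so the classes overlap widely. Without ribosomal protein and mitochondrial genes the highest class had a median of 333 residues. Across 8723 coding genes above the floor, Spearman's rho of level and coding length was -0.23, as a description, since genes are not independent and RPKM divides by transcript length.

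A TATA box, taken as TATAAA on the gene's strand lying within bases 40 to 15 before the start, was looked for in promoters of RefSeq (GRCh38.p14), of which 9702 matched a gene symbol of the table. It was present in 160 of them (1.65%). In the highest class it was in 28 of 729 promoters (3.84%), in the next class in 53 of 3024 (1.75%) and below the median in 41 of 3635 (1.13%). Under 80% of genes at the floor had a RefSeq promoter, so no TATAAA share is given for them from this source. With starts of canonical transcripts on GRCh37, which gave a promoter for 11978 genes, the shares were 1.86%, 1.28%, 1.88% and 5.13% from the floor to the highest class, and 17 of 98 promoters among the 100 highest genes held it. These are descriptions with no test.

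Of the 100 highest genes, 65 had a RefSeq promoter and 11 of these held TATAAA. The promoters below were chosen because they hold TATAAA, shown in capitals, and belong to highly ranked genes of the matrix, secretion and calcium binding. Each is written 5′ to 3′ on the gene's strand and ends at the base before the RefSeq start on GRCh38.p14. S100A4 (1166.9 RPKM) lies on the minus strand at chr1:153545807-153545866, IGFBP4 (1073.3 RPKM) on the plus strand at chr17:40443390-40443449 and CALR (922.1 RPKM) on the plus strand at chr19:12938549-12938608. P4HB (532.0 RPKM) lies on the minus strand at chr17:81860536-81860595 and COL6A2 (449.6 RPKM) on the plus strand at chr21:46098052-46098111. TATAAA starts 31 bases before the start in S100A4, 29 in IGFBP4, 30 in CALR, 28 in P4HB and 32 in COL6A2.
S100A4: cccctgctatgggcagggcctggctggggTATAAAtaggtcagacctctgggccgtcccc
IGFBP4: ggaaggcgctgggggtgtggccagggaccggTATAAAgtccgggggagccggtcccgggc
CALR: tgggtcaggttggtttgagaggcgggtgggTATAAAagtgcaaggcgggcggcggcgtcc
P4HB: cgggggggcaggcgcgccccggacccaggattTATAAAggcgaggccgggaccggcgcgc
COL6A2: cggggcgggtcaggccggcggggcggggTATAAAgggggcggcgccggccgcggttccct

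The motif TGACTCA, the sequence that AP-1 dimers bind, was searched on both strands over the 300 bases from 250 before to 50 after the start. It was in 3.70% of promoters of the highest class, 2.81% of the next class and 2.70% of those below the median. At the floor it was in 80 of 2314 promoters (3.46%), with a promoter for only 76.3% of those genes. The shares thus did not rise steadily with level. CXCL8, at 32.0 RPKM in sgRNA-NT and 350.2 RPKM in sgRNA-AP1-71, holds both motifs, with TGACTCA starting 137 bases and TATAAA 31 bases before the start, on the plus strand at chr4:73740429-73740568. ANXA2, a calcium-dependent membrane-binding protein at 577.6 RPKM (rank 56), has the reverse complement TGAGTCA 127 bases and TATAAA 31 bases before the start, on the minus strand at chr15:60397987-60398186. A match is no evidence of binding, and none was measured.
CXCL8: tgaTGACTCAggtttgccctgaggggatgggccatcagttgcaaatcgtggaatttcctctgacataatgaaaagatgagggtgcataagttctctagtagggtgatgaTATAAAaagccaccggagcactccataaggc
ANXA2: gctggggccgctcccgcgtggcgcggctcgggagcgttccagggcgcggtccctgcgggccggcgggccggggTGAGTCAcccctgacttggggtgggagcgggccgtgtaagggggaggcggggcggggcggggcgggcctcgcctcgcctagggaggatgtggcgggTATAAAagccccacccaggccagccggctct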

How the data were processed

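Poly(A) RNA of 4 single libraries was measured, and sgRNA-NT alone is described. The authors aligned reads to hg19 with TopHat2, counted them per gene with HTSeq-count, converted counts to RPKM and quantile-normalized the libraries. For tool versions the sources used here give nothing. For the RPKM values the paper names a GENCODE release older than the v44 used here. Exon overlaps and lengths given here may therefore differ from those behind the counts. The deposited RPKM values have a floor of 1 and 1 decimal. The authors' own log2 ratios to the control library were left out.

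Ranks, percentiles, list counts and shares of the summed RPKM were computed with Python 3.11.15, numpy 2.4.6, pandas 2.3.3 and scipy 1.17.1, and figures with matplotlib 3.10.9. The percentile function was tested on simulated data. With 1 library per condition no test was made. If a level lay at the floor, only the floor was reported. Transcript and coding lengths, exon overlap and GRCh37 starts came from GENCODE v44 lifted to GRCh37 (12012 of 12033 genes matched), and promoters from RefSeq on GRCh38.p14 (9702 matched). Motif positions were read from these sequences.

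The library, its markers and the gene lists were chosen with earlier results of these data known. Named genes are the 5 markers, the 30 highest genes, the 5 highest members and the floor members of each list, any member of a list of up to 20 measured genes, and genes at the edge of a class. CXCL8, ANXA2 and the other promoters printed were shown for their motifs. MKI67, LMNB1, GLB1, MALAT1, NEAT1, PDGFRA, LUM and TMSB4X were named after their values were seen, as were the genes of overlapping exons. Some members of the lists are counted but not reported here by name. Alternatives were a limit of 2 RPKM, the floor summed as 0, mitochondrial genes left out, protein-coding genes or genes above the floor as reference, and the highest 20% in place of 10%. GRCh37 promoters and the removal of genes with exon overlap over 50% were added after seeing the data.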

Additional observations from a re-analysis of the deposited data

Results flagged for a closer look

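In all, 4 genes at the floor in the control library were at 3 RPKM or more in each of the other 3 libraries, which are outside the description above. IFIT1, an interferon-induced RNA-binding protein, was at 1.0 RPKM in sgRNA-NT and 3.4, 3.4 and 4.4 RPKM in the other libraries, in library order. SCG5, a chaperone of a prohormone convertase, was at 1.0 RPKM in sgRNA-NT and 3.3, 5.6 and 4.9 RPKM in the others, and 94.0% of its exon bases are shared with another gene of its strand, so its value is uncertain. The pseudogenes RPL6P27 and TMSB4XP4 were at 1.0 RPKM in sgRNA-NT, with 3.9, 3.4 and 3.3 RPKM and 3.9, 3.7 and 3.7 RPKM in the others. By their names they are copies of RPL6 and TMSB4X, and whether reads were shared with these genes was not tested. In the other direction 2 genes were at 3 RPKM or more in sgRNA-NT and at the floor in the others. With 1 library per condition these differences were not tested, and 3 RPKM is a low level at unknown depth.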

How the results depend on the processing

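With mitochondrial genes left out, the 10 highest genes made up 15.6% and the 100 highest 36.3% of the summed RPKM, and the shares of ribosomal proteins, matrix genes with collagens and cytoskeletal genes were 8.33%, 4.99% and 10.4%. Fewer genes were summed there. A limit of 2 RPKM put 4569 genes in the silent class. Among genes above the floor, the median percentile of cytokines was 50.9 and that of growth factors 78.2, since members at the floor drop out. With the highest 20% of genes as the limit, 5 cytokines and 8 proliferation genes passed. These settings moved the median percentile of 10 of 32 lists and the count of 9 of 33 lists in all, and a limit of 2 RPKM moved the count above it in 2 of 33. The TATAAA share was 1.65% over all genes above the floor. Summing the floor as 0, protein-coding genes as reference, promoters from GRCh37 and the removal of overlapping genes moved no count or share by over 1.5 times and no percentile by over 10 points.

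No paired analysis was possible because each condition has 1 library. The depth is unknown, levels under 1 RPKM are not resolved, and quantile normalization fixes the spread of levels. Values without a replicate describe these libraries only, and differences between the culture, the guide and the library cannot be told apart.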

Other observations

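Of the 100 highest genes of the sgRNA-NT library, 13 were in none of the gene lists, and 4 of these 13 are described here, chosen after their values were seen. The surface genes CD248 (endosialin of stromal cells) and ANPEP (aminopeptidase N) were at 634.4 RPKM (rank 51) and 627.8 RPKM (rank 52) in sgRNA-NT. CD248 was at 334.2, 250.0 and 532.0 RPKM and ANPEP at 258.1, 192.5 and 584.6 RPKM in the other libraries in library order, so the control library was the highest of the 4 for both. UCHL1, a deubiquitinating enzyme abundant in neurons, was at 409.2 RPKM (rank 85), while the neural markers MAP2 and GAP43 were at the floor and SYT1 was at 1.5 RPKM. PYGB, a glycogen phosphorylase, had 383.3 RPKM (rank 93) in the control and 301.1, 241.0 and 193.5 RPKM elsewhere.

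TMSB4X, the close relative of TMSB10 that also binds actin monomers, was at 264.4 RPKM, 28.6-fold under TMSB10. TMSB4X has pseudogene copies, among them TMSB4XP4, and whether reads were shared between them was not tested.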
